A study of Mus musculus with 4 samples.

Results

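The LAP, LEM and torsin genes of the nuclear membrane are a set of 10 genes chosen by name for their protein families: Tmpo, Lemd2, Lemd3, Tor1a, Tor1b, Tor1aip1, Tor1aip2, Nrm, Tmem43 and Tmem201. All 10 were found among the 24421 gene symbols of the deposited count matrix. They were followed in B16F10 cells, a mouse melanoma line of the C57BL/6 strain, in which lamin A and lamin C had been lowered by a short hairpin RNA (shRNA). Cells of 2 libraries (shControl 1 and 2) stably carried a control vector, listed by the study as empty, and cells of 2 libraries (shLmna 1 and 2) stably carried an shRNA against Lmna, the gene of both A-type lamins. Cells of both groups had been transduced with lentivirus and selected with 2.5 µg/ml puromycin. With an empty control vector, effects of a hairpin as such and of lower Lmna cannot be told apart. The labels do not say whether replicate libraries go back to independent transductions, and the p-values measure the spread between these libraries, which may be technical.

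The inner nuclear membrane holds proteins that tie the lamina and chromatin to the nuclear envelope. Lamina-associated polypeptides (LAPs) bind lamins, and proteins with a LEM domain bind barrier-to-autointegration factor (BAF), a small protein that bridges DNA. Torsins are ATPases of the endoplasmic reticulum and the perinuclear space that need a membrane-bound activator to work. Several proteins of this group bind lamin A/C or depend on it for their place in the inner membrane, which makes their transcripts a natural set to follow when Lmna is knocked down.

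RNA was counted at the 3′ end of transcripts by bulk MARS-seq, with library totals from 2494880 to 3808843 counts. Values are given as raw counts and as CPM, the count scaled to library size, here with TMM factors. A single count equals between 0.268 and 0.396 CPM, depending on the library. The targeted gene was checked first. Lmna had 2826 and 2684 counts in the shControl libraries and 331 and 480 in the shLmna libraries, a fall of 83.6% (edgeR quasi-likelihood adjusted p = 7.93e-06). Melanocyte lineage markers were abundant in every library, with summed levels from 20117 to 24602 CPM over 7 genes, although Tyr had at most 7 counts. Of these 7 genes, Mlana and Pmel were higher in shLmna and Sox10 lower by the adjusted test. Ptprc, Cd3e, Cdh5 and Epcam, which mark leukocytes, endothelium and epithelium, were at 0 counts in each library, as were the fibroblast markers Dcn and Lum. Other markers of these types had counts, and each list summed lower in both shLmna libraries than in both shControl libraries. The 5 fibroblast markers summed to 7.12 and 7.23 CPM in shControl and to 2.37 and 4.9 CPM in shLmna. The 5 leukocyte markers, of which only Cd68 had counts, summed to 16.4 and 14.5 CPM in shControl and to 10.7 and 11.99 CPM in shLmna. For the 4 epithelial markers, the sums were 5.89 and 2.95 CPM in shControl, mostly Krt8, and 0.396 and 1.63 CPM in shLmna, mostly other markers. For the 4 endothelial markers they were 0.619 and 1.34 CPM in shControl and 0 and 0.272 CPM in shLmna. Only 2 genes of these 4 lists had enough counts to be tested, and neither passed the adjusted test. The part of such differences in the values of the 10 genes was not tested. Replicates differed by more than sampling noise, with a chi-square per degree of freedom of 6.96 in shControl and 3.91 in shLmna, and were counted as separate samples.

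Lemd3, the gene of the LEM domain protein MAN1, was lower in shLmna by 2.92-fold, and no member was called higher. Tmpo, the gene of the LAP2 proteins, was 2.18-fold higher by its estimate but did not pass the test, and the estimates of the other 8 members lay within 0.23 of 0 on the log2 scale. By the edgeR quasi-likelihood test with Benjamini-Hochberg adjustment over 9150 tested genes, 1 of the 10 passed an adjusted p of 0.05, in the lower direction, while 15.2% of all tested genes passed in either direction, 9.74% as lower and 5.48% as higher. A share of 1 in 10 is near this background. Lemd3 and Tmpo, 2 of 10 members, had an unadjusted p under 0.05, against 30.1% of tested genes. The groups did not overlap in CPM for 4 of 10 members, against 60.1% of tested genes. The median log2 fold change of the members was -0.08, and that of all tested genes was -0.0011. All 10 passed the filter on low counts. Lemd3 passed it through its shControl libraries alone, so it could enter the test only because it was higher there.

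**Figure D1:**
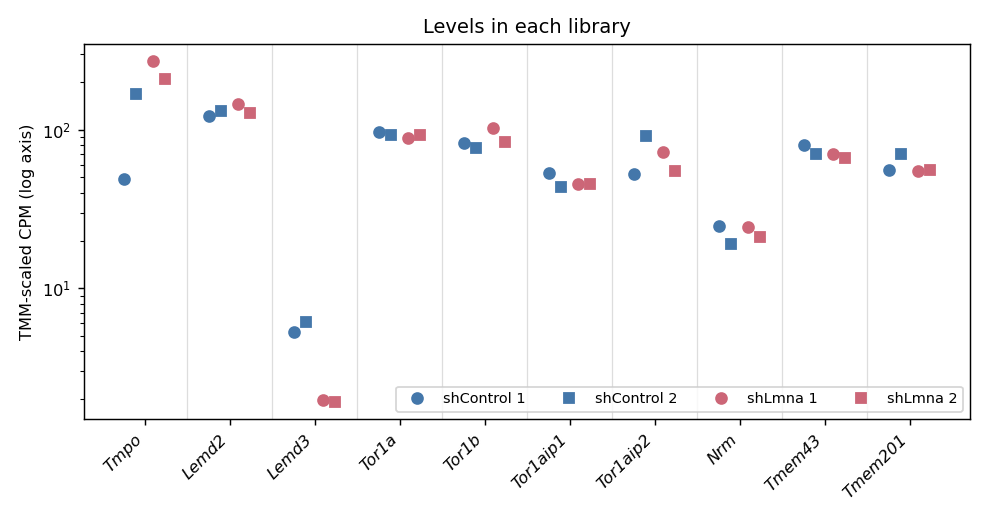
Level of each of the 10 genes in each library, as TMM-scaled CPM on a log axis. Blue points are shControl and red points shLmna, with circles for replicate 1 and squares for replicate 2. Lemd3 lies near 2 CPM in both shLmna libraries and above 5 CPM in both shControl libraries, and Tmpo in shControl 1, at 48.9 CPM, stands apart from its level in the other 3 libraries.

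**Figure D2:**
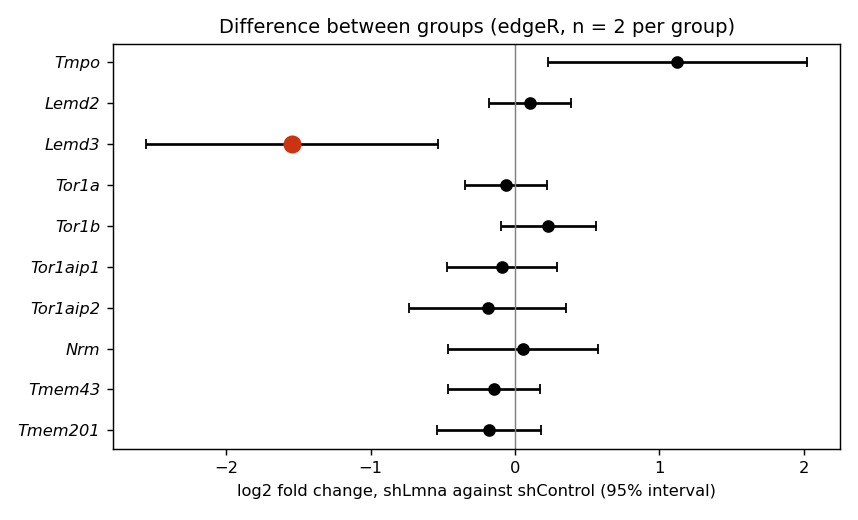
Log2 fold change of each of the 10 genes in shLmna against shControl, with points for the edgeR estimate and bars for its 95% interval (n = 2 per group). The red point, Lemd3, is the one with an adjusted p under 0.05. The intervals of Lemd3 and Tmpo do not reach 0, and those of the other 8 genes span it.

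The LEM domain proteins among the members are products of Tmpo, Lemd2 and Lemd3. Lemd3 encodes MAN1, an integral protein of the inner nuclear membrane that binds BAF, lamins and receptor-regulated SMADs and is known to restrain TGF-beta and BMP signaling. The gene lies on the minus strand of chromosome 10 (GRCm38, 120923413 to 120979332). Lemd3 had 17 and 23 counts (5.27 and 6.16 CPM) in the shControl libraries and 5 and 7 counts (1.98 and 1.91 CPM) in the shLmna libraries. Both shLmna libraries thus lay below both shControl libraries, and 60.1% of tested genes did not overlap in either direction. For Lemd3 this was fixed once it passed the filter through shControl alone, so it adds no support. The small distance between the shLmna replicates rests on 5 and 7 counts and is no measure of precision. The level fell from 5.71 ± 0.631 to 1.94 ± 0.0498 CPM (SD, n = 2). On the log2 scale this was -1.55 (SE 0.453, 95% interval -2.56 to -0.53, adjusted p = 0.0465 by edgeR), or 2.92-fold lower in shLmna. It also passed the study's 3 limits together, an adjusted p under 0.05, a log2 fold change over 1 in size and a mean normalized count over 5, which 7.64% of tested genes did in either direction and 5.88% as lower.

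The Lemd3 difference rests on few counts and on an adjusted p next to its limit. Summed over the libraries of a group, 40 counts in shControl have an exact 95% Poisson interval of 28.6 to 54.5, and 12 counts in shLmna one of 6.2 to 21.0, which cover counting error only. The adjusted p was above 0.05 in 9 of 15 alternative settings, among them DESeq2 (adjusted p = 0.455) and each fit with 1 library left out. Those last fits keep 1 library in a group, so their p-values are not given. The direction was lower in all 15. For Lemd3 the direction was fixed once it passed the filter through shControl alone, so it adds no support. Among the fits to counts without a GC offset, the log2 fold change stayed between -1.65 and -1.43.

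**Figure D3:**
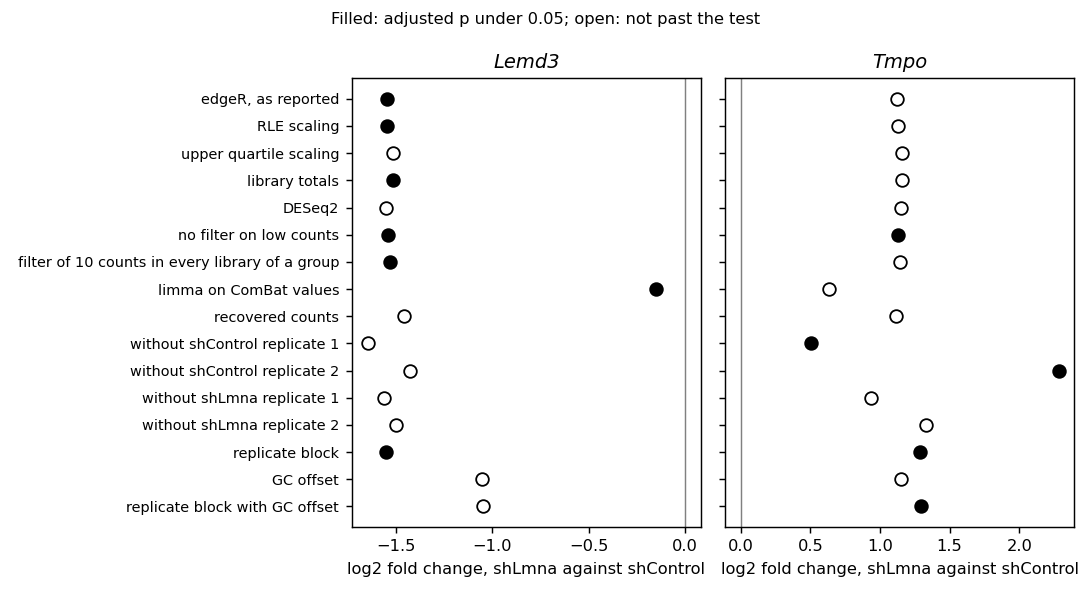
Log2 fold change of Lemd3 (left) and Tmpo (right) in shLmna against shControl under the reported fit and each alternative. Filled points have an adjusted p under 0.05 and open points do not. Lemd3 lies below 0 in every setting and is filled in 7 of the 16. Tmpo lies above 0 in every setting and moves most when a shControl library is left out. For both genes the groups do not overlap, so refits of the same libraries hardly could turn the sign.

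Tmpo encodes the LAP2 proteins, which share an amino-terminal LEM domain. LAP2alpha is nucleoplasmic and binds lamin A/C and RB1, while LAP2beta and related forms span the inner nuclear membrane. The gene lies on the minus strand of chromosome 10 (91147571 to 91181315). Tmpo had 158 and 629 counts (48.9 and 168.4 CPM) in the shControl libraries and 686 and 764 counts (271.3 and 208.2 CPM) in the shLmna libraries. Both shLmna libraries were above both shControl libraries, but the shControl libraries differed from each other by 3.44-fold. Only 0.765% of tested genes differed more than Tmpo between the shControl libraries, on the log2(CPM + 1) scale. The shLmna libraries differed by a factor of 0.767, a ratio that 21.1% of tested genes exceeded in size. The mean was 108.7 ± 84.5 CPM in shControl and 239.7 ± 44.7 CPM in shLmna (SD, n = 2). The fitted log2 fold change was 1.13 (SE 0.403, 95% interval 0.22 to 2.03). With an edgeR adjusted p of 0.0926, this difference did not pass the test.

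The size of the Tmpo difference moved with the shControl library left out. Without shControl 1 the log2 fold change was 0.51, and without shControl 2 it was 2.28. Each of these fits keeps 1 shControl library, so its p-value cannot contain the difference between the shControl libraries and is not given. The matrix gives a single count per symbol, and the 5 coding RefSeq transcripts of Tmpo in the annotation have 4 distinct 3′ ends, so LAP2alpha and the membrane-bound forms cannot be told apart here. Of the 31-base stretches of its counted 3′ ends, 6.9% also occur, in antisense, in the noncoding gene Gm26765, and whether reads were assigned by strand is not stated.

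Lemd2 encodes an inner nuclear membrane protein with a LEM domain that recruits the ESCRT-III adaptor CHMP7 when the nuclear envelope is sealed after mitosis. It lies on chromosome 17 (27189600 to 27204469, minus strand). Lemd2 had 396 and 491 counts (122.7 and 131.5 CPM) in the shControl libraries and 368 and 471 counts (145.5 and 128.3 CPM) in the shLmna libraries. The groups overlapped, since shLmna 2 lay between the shControl libraries. The log2 fold change was 0.10 (95% interval -0.18 to 0.39, adjusted p = 0.634 by edgeR).

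Tor1a and Tor1b encode torsinA and torsinB, AAA+ family ATPases of the endoplasmic reticulum lumen and perinuclear space. Loss of a glutamate in human torsinA causes early-onset dystonia. The genes are neighbors on chromosome 2 that point towards each other, Tor1b on the plus strand (30952959 to 30959015) and Tor1a on the minus strand (30960627 to 30967933). Their annotated 3′ ends are 1612 bases apart, so that counting windows reaching 100 bases downstream do not meet.

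Tor1a had 312 and 346 counts (96.6 and 92.6 CPM) in the shControl libraries and 224 and 339 counts (88.6 and 92.4 CPM) in the shLmna libraries. The shLmna values were lower than both shControl values by a margin smaller than the distance between replicates. The log2 fold change was -0.06 (95% interval -0.35 to 0.22, adjusted p = 0.791 by edgeR). Tor1b had 265 and 286 counts (82.1 and 76.6 CPM) in the shControl libraries and 260 and 308 counts (102.8 and 83.9 CPM) in the shLmna libraries. The shLmna libraries were both above the shControl libraries, but shLmna 2 only narrowly, and the log2 fold change of 0.23 did not pass the test (95% interval -0.10 to 0.56, adjusted p = 0.334 by edgeR).

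Tor1aip1 and Tor1aip2 encode the membrane-bound activators of torsins. LAP1, the product of Tor1aip1, is in the inner nuclear membrane and binds lamins, and LULL1, the product of Tor1aip2, is mainly in the endoplasmic reticulum. These genes also are neighbors, on chromosome 1, but point away from each other, with Tor1aip1 on the minus strand (156004599 to 156036480) and Tor1aip2 on the plus strand (156035403 to 156068861). Their annotated bodies overlap by 1078 bases at the 5′ ends, while their outermost 3′ ends are 64262 bases apart.

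Tor1aip1 had 173 and 162 counts (53.6 and 43.4 CPM) in the shControl libraries and 115 and 166 counts (45.5 and 45.2 CPM) in the shLmna libraries. The shLmna libraries were nearly equal and lay between the shControl libraries, with a log2 fold change of -0.09 (95% interval -0.47 to 0.29, adjusted p = 0.764 by edgeR). Tor1aip2 had 169 and 339 counts (52.3 and 90.8 CPM) in the shControl libraries and 182 and 202 counts (72.0 and 55.0 CPM) in the shLmna libraries. As with Tmpo, shControl 2 was well above shControl 1, by 1.73-fold, and 5.69% of tested genes differed more between these libraries. The log2 fold change was -0.19 (95% interval -0.73 to 0.35, adjusted p = 0.647 by edgeR). Its direction turned with the library left out, from -0.53 without shControl 1 to 0.26 without shControl 2.

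The other members are multi-pass membrane proteins of the nuclear envelope. Nrm encodes nurim, a protein that is tightly held in the nuclear membrane. Nrm had 80 and 71 counts (24.8 and 19.0 CPM) in the shControl libraries and 62 and 77 counts (24.5 and 21.0 CPM) in the shLmna libraries. Both shLmna values lay between the shControl values, and the log2 fold change was 0.05 (95% interval -0.47 to 0.57, adjusted p = 0.912 by edgeR), with a sign that turned under 4 of 15 alternatives.

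Tmem43 encodes LUMA, a protein that binds emerin and lamins and whose human mutation causes an inherited heart muscle disease. Tmem43 had 260 and 264 counts (80.5 and 70.7 CPM) in the shControl libraries and 179 and 242 counts (70.8 and 65.9 CPM) in the shLmna libraries. The groups overlapped, since shControl 2 lay just below shLmna 1, and the log2 fold change was -0.15 (95% interval -0.47 to 0.17, adjusted p = 0.537 by edgeR). Tmem201 encodes SAMP1, which binds emerin and SUN proteins and takes part in nuclear movement and at the mitotic spindle. Tmem201 had 180 and 261 counts (55.8 and 69.9 CPM) in the shControl libraries and 139 and 206 counts (55.0 and 56.1 CPM) in the shLmna libraries. The shLmna libraries were alike and close to shControl 1, and the log2 fold change was -0.18 (95% interval -0.54 to 0.18, adjusted p = 0.496 by edgeR).

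For the 8 members other than Lemd3 and Tmpo, log2 fold changes ranged from -0.19 to 0.23 and adjusted p from 0.334 to 0.912. Their 95% intervals lay between -0.73 and 0.57, reaching at most a 1.66-fold fall for Tor1aip2 and at most a 1.49-fold rise for Nrm. The smallest count behind any of these values was 62. Levels are those of whole cultures, in which fewer cells with a transcript and less transcript per cell cannot be told apart.

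Base composition of the counted 3′ end differed among the members and went along with the calls in the whole data set. GC content was taken from the last 1000 bases of the longest coding transcript matched to RefSeq, and it was lowest for Lemd3, at 32.7%, followed by Tmpo at 38%, Tor1aip2 at 39.5%, Tor1aip1 at 40.9%, Tmem43 at 44.1% and Tor1b at 47.3%. It was 49.5% for Tor1a, 51.3% for Tmem201, 52.3% for Nrm and 56.8% for Lemd2, and the median of tested genes was 46.9%. Other annotated ends gave from 33.7% to 41.8% for Tmpo, from 40.6% to 48.5% for Tor1aip1, from 37.9% to 39.5% for Tor1aip2 and from 51.3% to 55.0% for Tmem201, so that 1 Tmpo end also lies below 34%. Of 317 tested genes whose GC content did not exceed 34%, 50.2% were lower in shLmna by the adjusted test and 5.36% higher. Lemd3 belongs to this class by the end of its only coding transcript matched to RefSeq. Among the 1911 genes with a mean under 10 CPM, as Lemd3 has, 11.4% were lower. With a smooth offset for GC content in each library, the Lemd3 log2 fold change was -1.05 (adjusted p = 0.149 by edgeR), and that of Tmpo was 1.15 (adjusted p = 0.09).

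**Figure D4:**
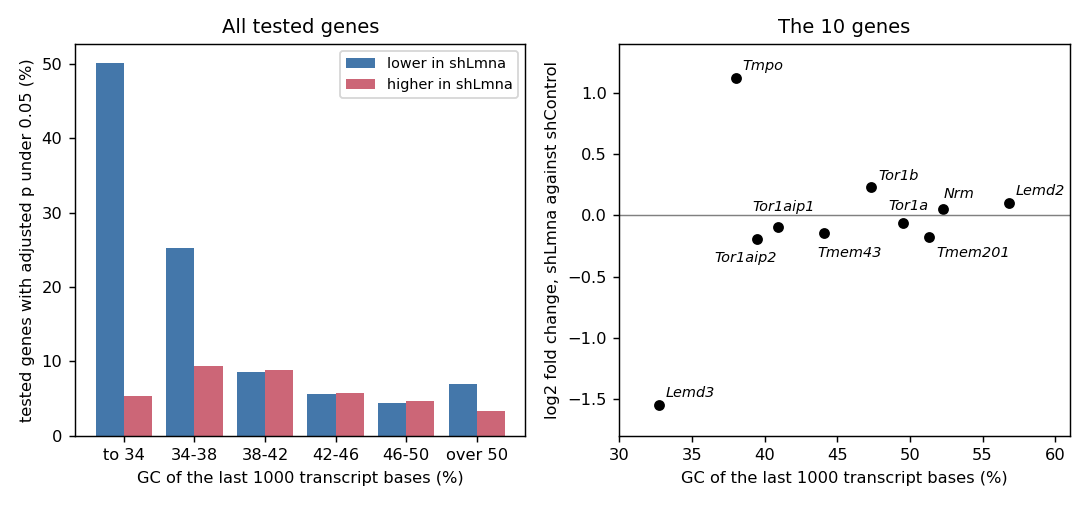
Left, percent of tested genes with an adjusted p under 0.05 that were lower (blue) or higher (red) in shLmna, by GC content at the counted end (last 1000 bases, longest coding transcript). Right, log2 fold change of the 10 genes against the same GC content. In the class up to 34% GC, 50.2% of genes were lower, and Lemd3, at 32.7%, is the member in that class.

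Genes that work with these proteins were examined as 7 lists of 48 genes in all, of which 46 were in the matrix and 40 were tested, Lmna included. By the adjusted edgeR test, 5 of them were lower and 1 was higher, with the targeted gene Lmna among the 5. These 6 of 40 are near the 15.2% of all tested genes, and the median log2 fold change of the 40 was -0.05. None of the 5 tested genes in the LEM domain and BAF list passed. Emd (emerin, a LEM domain protein of the inner nuclear membrane) had 452 and 559 counts in the shControl libraries and 361 and 494 in the shLmna libraries, for a log2 fold change of -0.06 (adjusted p = 0.772). Banf1, the gene of BAF, had 1421 and 1627 counts in the shControl libraries and 1023 and 1591 in the shLmna libraries, also with -0.06 (adjusted p = 0.770). Tor2a, a torsin outside the 10 genes, had a log2 fold change of 0.28 (adjusted p = 0.169), and neither of the 2 tested genes of that list passed.

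Of the lamins and the lamin B receptor, Lbr was lower beside Lmna. Lbr is a sterol reductase that tethers heterochromatin to the inner membrane. It had 99 and 113 counts in the shControl libraries and 5 and 6 in the shLmna libraries. Its log2 fold change was -4.07 (SE 0.308, adjusted p = 2.68e-05 by edgeR). The 3′ end of Lbr had a GC content of 33.4%, and with the GC offset its log2 fold change was -3.66 (adjusted p = 1.36e-04 by edgeR). Like Lemd3, Lbr, Chmp1b and Rb1 passed the filter on low counts through the shControl libraries alone, so they could enter the test only because they were higher there. Lmnb1 (0.27, adjusted p = 0.230) and Lmnb2 (-0.41, adjusted p = 0.0797) did not pass in the reported fit, but Lmnb2 passed under 5 of 15 alternatives and Lmnb1 under 2. None of the 5 tested LINC complex genes passed, and none of the 4 tested other inner membrane genes. The LINC log2 fold changes were 0.10 for Sun1, 0.16 for Sun2, 0.05 for Syne2 and -0.21 for Syne3. Syne1 had the largest, at 0.43 (unadjusted p = 0.0147, adjusted p = 0.0789 by edgeR). It was the only LINC gene with an unadjusted p under 0.05. For Syne1, as for Sun2, both shLmna libraries lay above both shControl libraries.

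ESCRT-III genes, whose products close the reforming nuclear envelope with LEMD2, had 3 of 14 tested genes past the adjusted test, against 15.2% of all tested genes. Chmp7, which LEMD2 recruits, had 215 and 225 counts in the shControl libraries and 162 and 281 in the shLmna libraries, with a log2 fold change of 0.16 (adjusted p = 0.531 by edgeR). Chmp6 rose from 172.6 ± 4.98 to 306.3 ± 18.2 CPM (SD, n = 2). On the log2 scale this was 0.83 (adjusted p = 0.0017). Vps4b, an ATPase that takes ESCRT-III filaments apart, fell from 30.7 ± 7.0 to 10.97 ± 1.26 CPM. Its log2 fold change was -1.50 (adjusted p = 0.0042 by edgeR). Without shLmna 2 it was -1.36, and Vps4b did not pass in that fit, which keeps 1 shLmna library. Chmp1b had 34 and 77 counts in the shControl libraries and 0 and 9 in the shLmna libraries, for a log2 fold change of -3.43 (adjusted p = 0.0076), with 0.284 by DESeq2. Leaving out shLmna 2, the library with the 9 counts, gave Chmp1b a fitted log2 fold change of -8.63 against 0 counts, which is no bound. GC content of the 3′ end was 57.0% for Chmp6, 37.3% for Vps4b and 34.1% for Chmp1b. Of 826 tested genes with a GC content over 34% and up to 38%, 25.3% were lower in shLmna by the adjusted test and 9.32% higher. Vps4b and Chmp1b are in this class. With the GC offset, the log2 fold change was -1.45 for Vps4b (adjusted p = 0.0051 by edgeR) and -3.07 for Chmp1b (adjusted p = 0.0123). It was 0.91 for Chmp6 (adjusted p = 0.0011). The part of GC content in these values was not tested beyond this fit.

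Receptor-regulated SMADs bind MAN1, and RB1 binds LAP2alpha. Among the listed SMAD genes and Rb1, 1 of 6 tested genes passed, against 15.2% of all tested genes. Rb1, with 12 and 23 counts in the shControl libraries, was at 0 in shLmna 1 and shLmna 2. This is at least 4.93-fold lower when shLmna is set to 3 counts per library (adjusted p = 0.005 by edgeR). Without shControl 2 Rb1 did not enter the test, and without shLmna 2 it did not pass. The 3′ end of Rb1 had a GC content of 34.9%, in the same class as those of Vps4b and Chmp1b. With the GC offset its edgeR adjusted p was 0.0066. None of the 5 tested Smad genes passed.

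**Figure D5:**
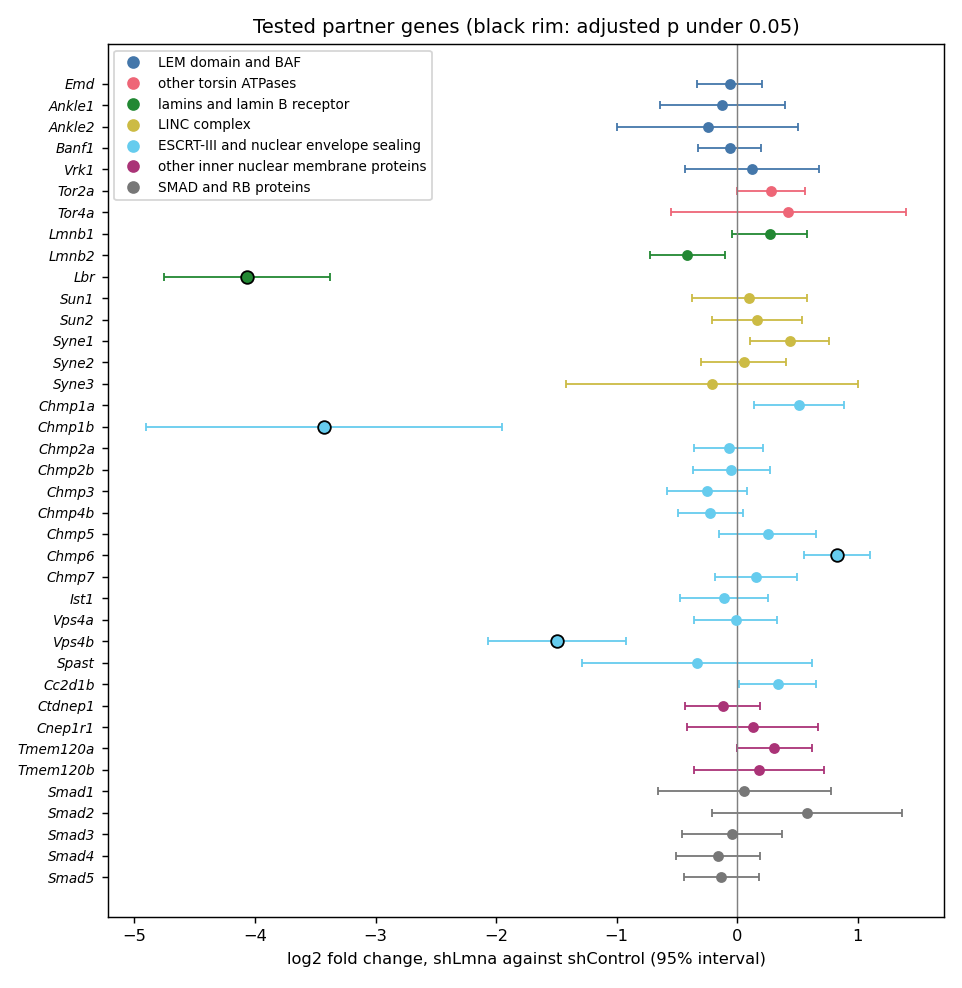
Log2 fold change in shLmna against shControl (points) with 95% intervals (bars) for 38 tested partner genes, colored by list. Lmna and Rb1 are left out, the first as the targeted gene and the second because it had 0 counts in shLmna. Points with a black rim, Lbr, Chmp1b, Chmp6 and Vps4b, have an adjusted p under 0.05.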

How the data were processed

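The authors ran the UTAP pipeline on the bulk MARS-seq reads: Cutadapt trimming, STAR 2.4.2a alignment to mm10, and HTSeq counting over the last 1000 bases of RefSeq genes and 100 bases downstream, with duplicates of a unique molecular identifier marked. The authors deposited raw counts per gene symbol, and whether duplicates were collapsed there is not stated. Another deposited table holds a signal, which is the count divided by a DESeq2 size factor, beside the authors' p-values, which were not used. A further table holds log2 values that the authors corrected with ComBat for batches not named. Counting strand is not given in the sources used here.

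Counts were tested with edgeR 4.0.16 in R 4.3.3 (TMM, filterByExpr, quasi-likelihood F test, two-sided, group as the only term, Benjamini-Hochberg over 9150 genes). Standard errors and intervals were derived from the F statistic. DESeq2 1.42.0 and limma 3.58.1 gave alternatives. All signal values (100% in each library, within 0.01) were whole multiples of a step, so whole counts were recovered, and the matrix exceeded them 1.08 to 1.09 times. Positions, 3′ ends and GC content came from GENCODE M21 (GRCm38, the assembly of mm10), which gave GC for 96.3% of tested genes. The fit was also run on simulated data, whose outcome is not reported here and is not used as support. All 10 genes and Lmna are named, as are partner genes with an adjusted p under 0.05 and 8 set by name. Tor2a and the tested Syne genes (Syne1, Syne2 and Syne3) are named in addition. Members, lists and tests were chosen with earlier results of these data known.

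Replicate numbers were checked as pairs. The correlation across genes of replicate differences between the groups was 0.01, and no label ties the numbers, so they were not treated as pairs.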

Additional observations from a re-analysis of the deposited data

How the results depend on the processing

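Of 150 member values under 15 alternatives, 127 kept their direction and side of the adjusted test. The call was lost by 9 (all Lemd3), while 7 newly passed (Tmpo, Tor1b and Tor1aip2) and 7 changed sign. Tor1b passed only on ComBat values (log2 fold change 0.12, adjusted p = 0.0377 by limma). Tor1aip2 passed only in a fit that keeps 1 shControl library. Lemd3 was lower in every alternative, a direction that was fixed once it passed the filter through shControl alone. Its log2 fold change was from -1.65 to -1.43 in fits to counts without a GC offset and -1.05 in both fits with it. On ComBat values it was -0.15, and Lmna was also smallest there (-1.54). Lmna was lower and past the test in all 15 (-2.74 to -1.54). The count of members past the test was 0 with upper quartile scaling, DESeq2, recovered counts or the GC offset, and 2 without a filter, with ComBat values or with the replicate block. Without 1 of the libraries it was 0 to 2. With DESeq2, 589 genes were lower, 218 higher and 457 past the study's 3 limits. With limma on ComBat values these counts were 1992, 1784 and 29. With the replicate block 852 genes were higher, and 855 with the block and GC offset together. Leaving out 1 library gave 414 to 1329 lower genes, 89 to 775 higher genes and 447 to 947 past the 3 limits, against 891, 501 and 699. With the block Tmpo passed the edgeR test (log2 fold change 1.29, adjusted p = 3.85e-11), as it did without a filter (1.13, adjusted p = 1.33e-13). Both fits use the same shControl libraries, which differ 3.44-fold for Tmpo. Without a filter the Tmpo estimate stayed as in the reported fit and only the p-value moved. The block treats replicate numbers that no label ties as pairs. Nrm was -0.0063 with ComBat values and -0.039 with recovered counts. Leaving out 1 library gave ranges that cross 0 for Nrm (-0.14 to 0.25), Tor1aip1 (-0.24 to 0.067), Tor1aip2 (-0.53 to 0.26) and Sun1 (-0.16 to 0.41). The cause of these changes was not tested. Depth limits Lemd3, with 5 to 23 counts a library.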
